A study of Mus musculus with 18 samples.

Results

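Actinomycin D binds DNA and blocks transcription, so that RNA levels then follow decay. The change between 3 and 6 h of the drug is described here in mouse embryonic stem cells, for the 10911 loci of 14864 in the RNA table that had an RPKM (read density scaled to transcript length and library size) of at least 1 in both 3 h libraries. The 3 h level alone chose the loci. That level is also the starting point of the change to 6 h. A locus whose 3 h value is high by error passes more easily, so the limit favours rises to 3 h and falls to 6 h. Just inside that limit lay Ddx25 with 1.00 RPKM in the wild type 3 h library and Apol9b with 1.00 RPKM in the Tet2 KO 3 h library, and just outside lay Sntb1 and Crxos, each with 0.999 RPKM in the wild type 3 h library.

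The cells were Tet2 KO or wild type. Tet2 encodes a dioxygenase that oxidises 5-methylcytosine. Both genotypes were grown with LIF on mouse embryonic fibroblast feeders and given actinomycin D at 5 µg/ml, 6 h, 3 h or 0 h before collection. Poly(A) RNA gave 1 library per genotype and time, so the 2 genotypes served as the 2 replicates of each time, in 6 libraries of the 18 samples of the series. Nothing in the labels says how many cultures stand behind a library or whether the knockout is 1 clone, and p-values measure only the spread between these libraries. Because the genotypes are the replicates, a difference between them in the late change could not be tested.

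An mRNA is usually degraded after its poly(A) tail is shortened by deadenylases such as the CCR4-NOT complex, followed by decapping or by digestion in the exosome. RNAs of immediate early genes, cytokine pathway inhibitors and cell cycle regulators are known for short half-lives, and those of ribosomal proteins, glycolytic enzymes and cytoskeletal proteins for long ones. RPKM is a share of each library, so a locus that loses RNA at the average pace keeps its RPKM. Changes are therefore given as differences in log2(RPKM + 1), and where marked "relative", with the median over the 10911 loci of that genotype and interval subtracted. In such bulk samples, fewer cells of a type and less RNA per cell cannot be told apart.

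Tet2 RNA itself was present in all libraries, with 23, 11.2 and 10.1 RPKM in Tet2 KO and 23.7, 17.9 and 12.5 RPKM in wild type at 0, 3 and 6 h. It was lower in the Tet2 KO library at each time but not absent, so RNA level gives no check of the knockout, and the late difference was -0.31 (SE 0.24, limma adjusted p = 0.579). Of the embryonic stem cell markers, 6 of 8 listed were in the table as single symbols, with a summed level of 929.8, 1104 and 1094 RPKM in Tet2 KO and 926, 1152 and 827 RPKM in wild type. Feeder markers, 8 of 10 listed, summed to 135, 194 and 192 RPKM in Tet2 KO and 154, 227 and 172 RPKM in wild type. Trophectoderm had 1 marker of 3 in the table, at 0.271 to 1.27 RPKM, and primitive endoderm 2 of 4, at a summed 3.93 to 7.17 RPKM. The 10 highest loci held 37.2% to 43.0% of the summed RPKM of a library.

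Most RNAs had a smaller share of the library at 6 h than at 3 h, while their shares at 3 h and 0 h were balanced. The late difference was below 0 for 71.1% of the loci in Tet2 KO and for 83.7% in wild type, with medians of -0.19 and -0.38. The 3 h minus 0 h difference had a median of 0.00 in Tet2 KO and 0.00 in wild type, with 50.3% and 50.2% of the loci below 0. The early differences were also wider, with a standard deviation over loci of 0.70 in Tet2 KO and 0.65 in wild type, against 0.57 and 0.51 for the late ones. The shift of the median depended on the scaling: after quantile normalization it was 0.04 in Tet2 KO and -0.03 in wild type.

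**Figure D1:**
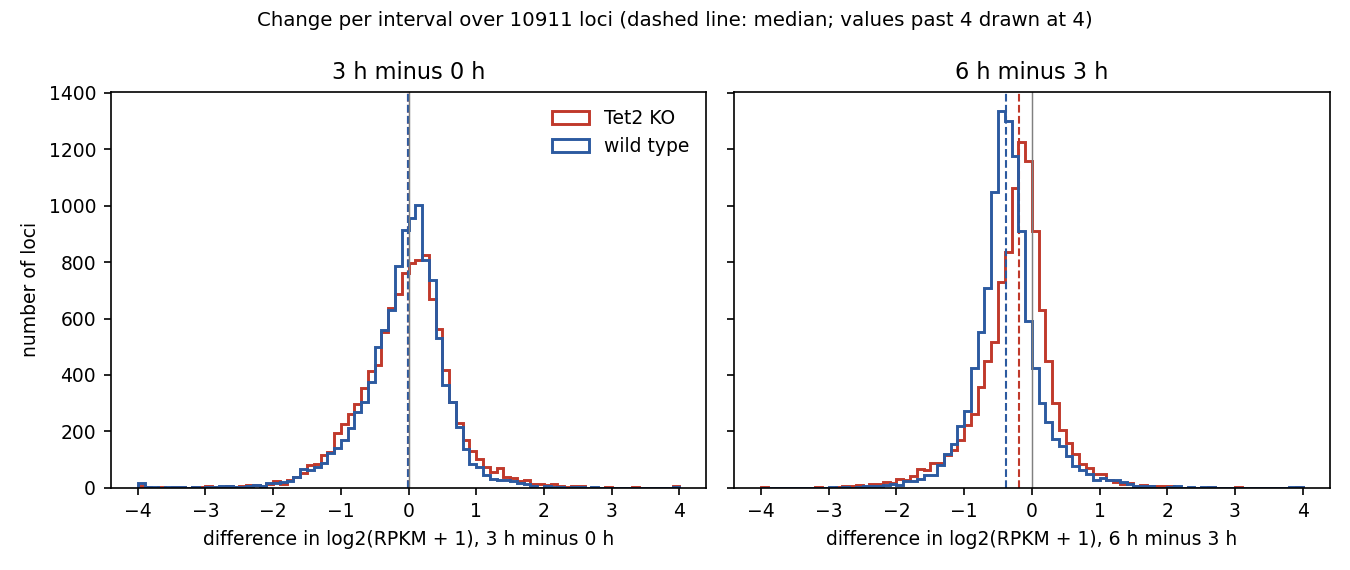
Histograms of the difference in log2(RPKM + 1) over 10911 loci, for 3 h minus 0 h on the left and 6 h minus 3 h on the right, with Tet2 KO in red and wild type in blue. The early medians lie at 0.00 in both genotypes, and the late medians at -0.19 in Tet2 KO and -0.38 in wild type.

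No single RNA passed the test for the late change. In limma over all 11855 loci averaging 1 RPKM or more, of which 10868 are among the 10911, 0 loci were called lower and 0 higher at an adjusted p under 0.05 (0% of those tested, smallest adjusted p 0.299). At an unadjusted p under 0.05, 1382 of the 10868 were lower at 6 h (12.7%) and 67 were higher (0.616%). The imbalance depended on the scaling, with 423 lower and 230 higher after quantile normalization, 493 and 193 with the median shift set to 0, and 624 and 139 when scaled to the genes of ribosomal proteins and oxidative phosphorylation. The late change minus the early change, which asks whether a fall was delayed, gave 0 calls in either direction as well, with 580 loci (5.34%) under an unadjusted p of 0.05 on the side of a later fall and 199 (1.83%) on the side of an earlier one. That balance depended on the scaling too, with 322 against 277 loci after quantile normalization, 333 against 315 with the median shift set to 0, and 168 against 462 when scaled to the genes of ribosomal proteins and oxidative phosphorylation. The early change itself gave 39 lower calls (0.359%) and 4 higher calls (0.0368%) among the same loci, against 0.506% and 0.0337% over all loci tested.

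The genotypes, which share no library, gave late changes that were weakly related. Across the 10911 loci the late change correlated between Tet2 KO and wild type with Pearson r = 0.09 (Spearman rho = 0.13), as a description only, since all loci of a library share its depth and scaling. The early change correlated with r = 0.34 (rho = 0.32). The late change in Tet2 KO correlated more closely with the early change in wild type (r = 0.17) than with the late change there. The gap between early and late correlations varied with the mean 3 h level. Under 5 RPKM, r was 0.38 early (rho = 0.32) and 0.11 late (rho = 0.13). At 20 to 100 RPKM, r was 0.28 early (rho = 0.20) and 0.11 late (rho = 0.19). At 100 RPKM or more, r was 0.08 early (rho = -0.02) and -0.08 late (rho = 0.06). A relative level at least 1.5-fold lower at 6 h than at 3 h was seen for 1489 loci in Tet2 KO (13.6%) and 900 in wild type (8.25%), and 285 loci had it in both (2.61%), which is 19.1% of the Tet2 KO loci and 31.7% of the wild type loci. A level higher at 6 h by that much was shared by 161 loci (1.48%), against 882 in Tet2 KO (8.08%) and 1023 in wild type (9.38%). A level lower by that much at 3 h than at 0 h was shared by 782 loci (7.17%).

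**Figure D2:**
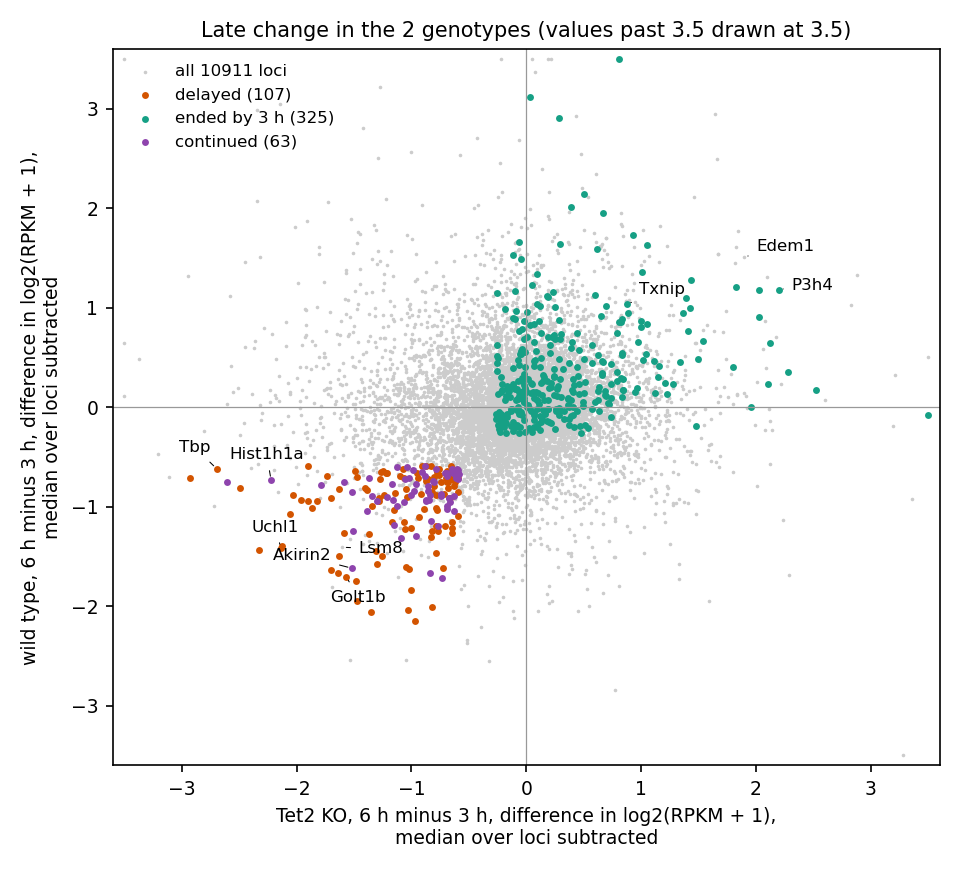
Late change, 6 h minus 3 h, in Tet2 KO (x axis) and in wild type (y axis), as the relative difference in log2(RPKM + 1) with 1 point per locus; coloured points are the 3 time-course classes. The cloud of 10911 loci has little slope (r = 0.09), and the 107 delayed and 63 continued loci fill the lower left corner by their definition.

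Loci were then sorted by size of change alone, with no test, and only where both genotypes agreed. A locus was called delayed where its relative level was at least 1.5-fold lower at 6 h than at 3 h and at most 1.2-fold lower at 3 h than at 0 h. It was called ended by 3 h where it was at least 1.5-fold lower at 3 h than at 0 h and at most 1.2-fold lower, level or higher at 6 h than at 3 h. It was called continued where it was lower by at least 1.5-fold in both intervals. The 3 h library enters the 2 intervals with opposite signs, so a high 3 h value moves a locus towards the delayed class and a low one towards the ended class.

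The classes held 107 delayed loci (0.981%), 325 ended loci (2.98%) and 63 continued loci (0.577%). In Tet2 KO alone 1159 loci met the delayed definition (10.6% of the loci) and in wild type alone 525 (4.81%). The shared 107 were 9.23% of the Tet2 KO set and 20.4% of the wild type set. For ended loci, 1568 in Tet2 KO (14.4%) and 1214 in wild type (11.1%) shared 325, which is 20.7% and 26.8% of the sets. For continued loci, 195 in Tet2 KO (1.79%) and 261 in wild type (2.39%) shared 63, which is 32.3% and 24.1% of the sets. With the deposited values taken without subtracting the medians, the classes held 374, 174 and 166 loci, and with a threshold of 2-fold they held 26, 89 and 2.

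The delayed RNAs were mostly those of protein-coding genes, 89 of 107 (83.2%, against 72.0% of the 10911 loci). Their median level was 5.31 RPKM at 0 h in Tet2 KO and 6.07 RPKM in wild type, and 10.3 and 8.68 RPKM at 3 h, the time whose high values favour the class. Some of them peaked at 3 h. In 29 of the 107, a group picked out after its values were seen, the relative 3 h level was at least 1.5-fold above 0 h in both genotypes. In 15 (14.0%), also picked out afterwards, the 3 h level was within 1.2-fold of 0 h in both, which is a flat start followed by a drop. In 87 (81.3%) the deposited RPKM at 6 h was below that at 0 h in both genotypes.

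Golt1b, at chr6:142387211-142413835 (GRCm38.p6), encodes a protein of vesicle transport to the Golgi. Its level was 13.6, 39.4 and 10.9 RPKM in Tet2 KO and 13.6, 39.6 and 8.61 RPKM in wild type at 0, 3 and 6 h. Both 3 h libraries stood above all 4 others, and the 6 h values were 0.277 times the 3 h value in Tet2 KO and 0.217 times in wild type. The late difference was -1.92 (SE 0.22, limma adjusted p = 0.299). Uchl1, at chr5:66676121-66687234, encodes a ubiquitin hydrolase, and had 37.5, 157 and 30.4 RPKM in Tet2 KO and 45.7, 103 and 29.1 RPKM in wild type. It too was highest in the 3 h libraries and lowest in the 6 h libraries, with no overlap between times and a late difference of -2.06 (SE 0.26, limma adjusted p = 0.299). The choice of Golt1b and Uchl1 by large changes or small p-values favours such separation, and its share over all loci was not counted. Nptn, the gene of the adhesion molecule neuroplastin, had 36.4, 105 and 35.4 RPKM in Tet2 KO and 38.7, 87.7 and 33.3 RPKM in wild type, and its 6 h levels were close to those of 0 h.

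The same peak was seen for RNAs of lower abundance. Ino80b, a subunit of the INO80 chromatin remodelling complex, had 2.48, 10.7 and 1.03 RPKM in Tet2 KO and 1.48, 10.8 and 2.36 RPKM in wild type. Tnfaip2, a gene first found as induced by tumour necrosis factor, had 2.78, 16.5 and 2.5 RPKM in Tet2 KO and 4.56, 10.7 and 2.43 RPKM in wild type. Iqcb1, a protein of the ciliary transition zone, had 15.5, 63.3 and 6.38 RPKM in Tet2 KO and 6.59, 11.3 and 4.79 RPKM in wild type, and Ift80, of intraflagellar transport, had 5.31, 17.1 and 7.93 RPKM in Tet2 KO and 6.33, 17.9 and 4.89 RPKM in wild type. In Iqcb1 the 2 genotypes differed severalfold at 3 h, whereas in Ift80 they nearly coincided there. Sike1, an inhibitor of antiviral kinase signalling, had 5.17, 12.1 and 4.63 RPKM in Tet2 KO and 13.1, 28.4 and 4.51 RPKM in wild type. Fahd2a had 3.36, 12.1 and 3.5 RPKM in Tet2 KO and 5.27, 12.8 and 1.56 RPKM in wild type. For Tbp, the TATA-binding protein of the general transcription machinery, the levels were 11.4, 27.8 and 2.88 RPKM in Tet2 KO and 8.59, 10.6 and 4.84 RPKM in wild type, so that the 3 h peak was large in Tet2 KO and small in wild type. The 6 h level was the lowest of the 3 times in both genotypes for 4 of these 7 genes (Tnfaip2, Iqcb1, Sike1 and Tbp). Their late differences ran from -2.17 for Ino80b to -1.35 for Ift80, with limma adjusted p-values of 0.299 to 0.303.

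A flat start followed by a drop was seen for Slbp, at chr5:33640055-33652574, which encodes the protein that binds the stem-loop of histone mRNAs. Slbp had 50.1, 46.8 and 21.5 RPKM in Tet2 KO and 36.9, 35.9 and 13 RPKM in wild type at 0, 3 and 6 h. Within each genotype the 3 h and 0 h levels were nearly equal, and the 6 h level was lower, with 6 h over 3 h ratios of 0.46 in Tet2 KO and 0.362 in wild type and a late difference of -1.24 (SE 0.21, limma adjusted p = 0.299). March5, a ubiquitin ligase of the mitochondrial outer membrane, had 46.6, 38.7 and 17.1 RPKM in Tet2 KO and 32.6, 32.9 and 15 RPKM in wild type. Ndc80, a kinetochore protein, had 17.5, 15.2 and 8.0 RPKM in Tet2 KO and 12.3, 10.1 and 4.37 RPKM in wild type. Nck2, a signalling adaptor, had 7.16, 7.69 and 2.67 RPKM in Tet2 KO and 6.42, 7.71 and 1.21 RPKM in wild type. Tfeb, a transcription factor for lysosomal genes, had 5.94, 5.27 and 1.21 RPKM in Tet2 KO and 5.36, 5.04 and 0.712 RPKM in wild type, and Lrrfip2 had 9.89, 10.3 and 5.34 RPKM in Tet2 KO and 10.1, 10.5 and 2.98 RPKM in wild type. In each of these 6 genes both 6 h libraries lay below both libraries of 0 h and of 3 h. Within a genotype this order follows from the way the group was picked, and the share of all loci with it in both genotypes was not counted. March5, Nck2, Tfeb and Lrrfip2 were picked for display as examples of this pattern after their values were seen.

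Single members of the gene lists also entered the delayed class. Stat3, the transcription factor that LIF activates, had 11.8, 36.7 and 11.8 RPKM in Tet2 KO and 28, 27.3 and 8.01 RPKM in wild type, with a 3 h peak in Tet2 KO and a flat start in wild type. Nr2f6, an orphan nuclear receptor, had 4.8, 6.77 and 2.9 RPKM in Tet2 KO and 2.88, 5.18 and 1.76 RPKM in wild type. Mrps18b, of the mitochondrial ribosome, had 32.1, 82.1 and 29.1 RPKM in Tet2 KO and 30.1, 32 and 14.4 RPKM in wild type. Rpl39l, a paralog of a ribosomal protein gene whose reads may be shared with near-identical copies, had 2.29, 3.76 and 1.27 RPKM in Tet2 KO and 5.74, 8.04 and 3.27 RPKM in wild type. Slc41a1, a magnesium transporter, had 2.9, 5.96 and 1.48 RPKM in Tet2 KO and 4.49, 7.76 and 1.26 RPKM in wild type. The 6 h level was the lowest within each genotype in these 5 genes, though for Stat3 in Tet2 KO it was close to the 0 h level.

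**Figure D3:**
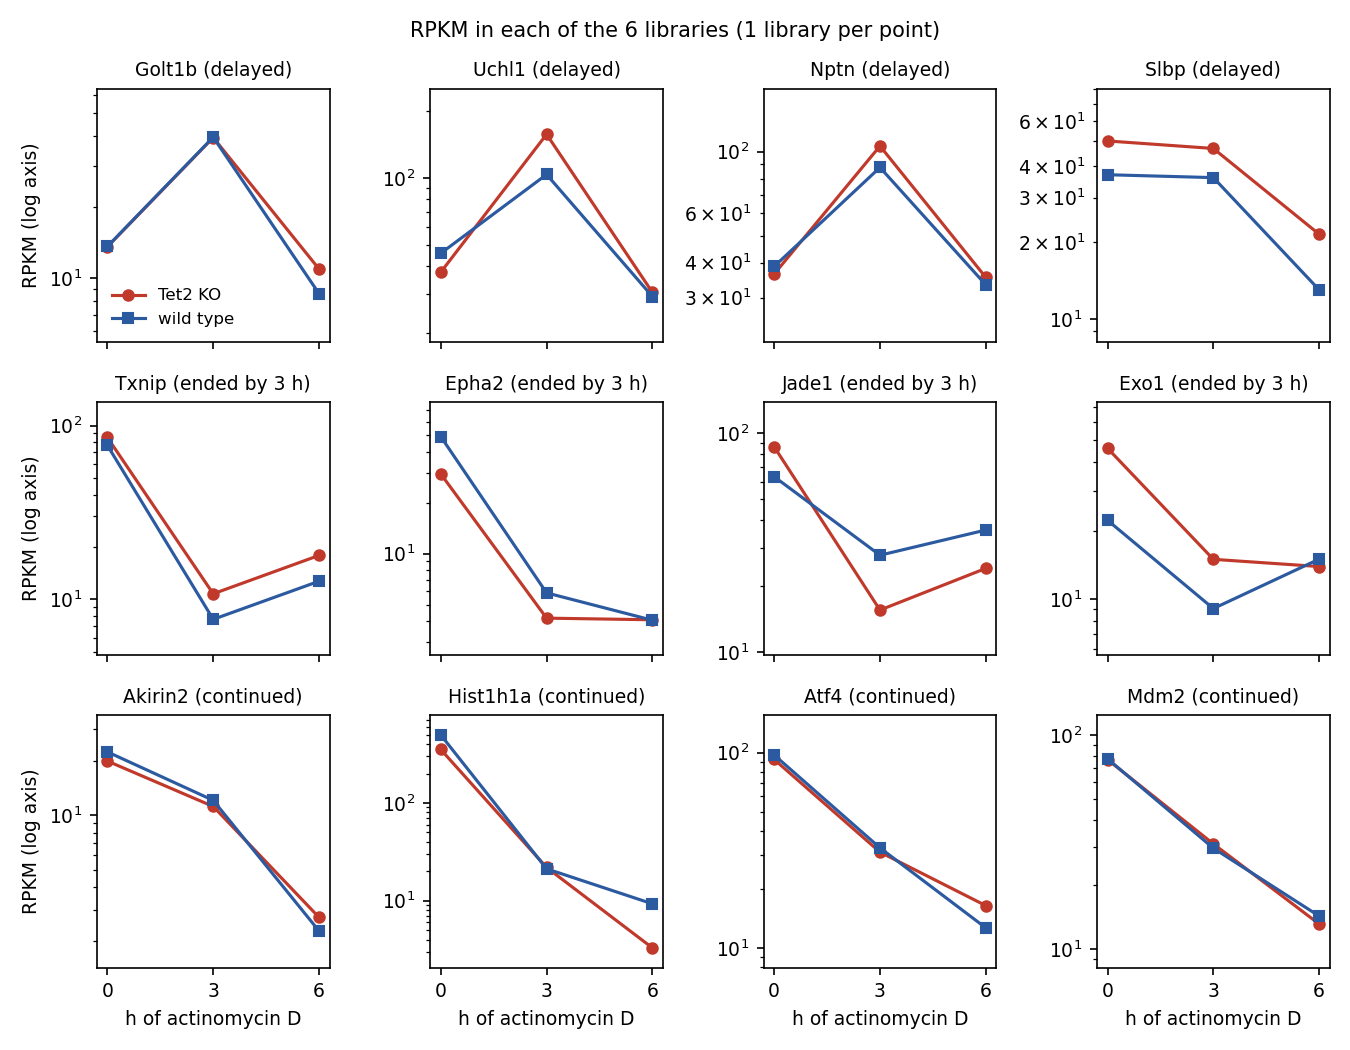
RPKM on a log axis at 0, 3 and 6 h of actinomycin D for 4 genes of each class, with 1 library per point, Tet2 KO as red circles and wild type as blue squares. Golt1b, Uchl1 and Nptn peak at 3 h, and Slbp is level to 3 h and lower at 6 h. The second row is below its 0 h level at 3 and 6 h in each genotype. There, 6 h is above 3 h in both genotypes for Txnip and Jade1, and in wild type for Exo1. The third row is lower at each step.

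The 325 RNAs whose fall had ended by 3 h had a median level of 7.70 RPKM at 0 h in Tet2 KO and 8.18 RPKM in wild type, against 9.28 and 9.32 RPKM over all loci. Their median 3 h level, low by the definition of the class, was 3.02 RPKM in Tet2 KO and 3.65 RPKM in wild type. Their median relative change was -1.04 in Tet2 KO and -0.91 in wild type to 3 h, and 0.17 and 0.20 from 3 to 6 h. What followed differed between them. In 121 (37.2%) the relative 6 h level was within 1.2-fold of 3 h in both genotypes, and in 30 (9.23%) it was at least 1.5-fold above 3 h in both. The deposited RPKM was higher at 6 h than at 3 h in both genotypes for 69 (21.2%) and lower in both for 124 (38.2%). With RPKM of at least 5 asked of both 3 h libraries the class held 110 loci, of which 75 were among the 325. RNAs that had already fallen under 1 RPKM in either 3 h library could not enter the class.

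Txnip, at chr3:96557957-96561857, encodes an inhibitor of thioredoxin and of glucose uptake. Its level was 85.4, 10.8 and 17.9 RPKM in Tet2 KO and 76.9, 7.68 and 12.7 RPKM in wild type. All 4 later libraries were far below the 0 h ones, and in both genotypes 6 h was above 3 h. Txnip fell in the early interval, with a difference of -3.02 (SE 0.21, limma adjusted p = 0.0163), and its late difference was 0.67 (SE 0.21, limma adjusted p = 0.357). Epha2, an ephrin receptor at chr4:141301221-141329384, had 29.5, 4.16 and 4.07 RPKM in Tet2 KO and 49, 5.86 and 4.05 RPKM in wild type. It fell early as well, with a difference of -2.71 (SE 0.27, limma adjusted p = 0.0289), after which the 6 h level was close to the 3 h level in Tet2 KO and below it in wild type. Zfp568, a KRAB zinc finger gene, had 27.2, 16.8 and 14.5 RPKM in Tet2 KO and 21.8, 14.1 and 12 RPKM in wild type. Pym1, a partner of the exon junction complex, had 21.7, 12.9 and 11 RPKM in Tet2 KO and 26, 16.6 and 11.4 RPKM in wild type. Nit1 had 13.9, 7.8 and 7.82 RPKM in Tet2 KO and 16.8, 8.24 and 7.17 RPKM in wild type. In these 3 genes, named as examples after their values were seen, the relative 6 h level was within 1.2-fold of the 3 h level.

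In other members the 3 h level was the lowest of the 3 times in both genotypes. P3h4, of the collagen prolyl hydroxylase complex, had 14.2, 4.5 and 21.1 RPKM in Tet2 KO and 21.4, 6.08 and 11.4 RPKM in wild type. Its Tet2 KO level at 6 h was above that at 0 h. Tmem33, a membrane protein of the endoplasmic reticulum, had 15.3, 4.08 and 10.8 RPKM in Tet2 KO and 31.9, 13.3 and 17.9 RPKM in wild type, and Jade1, of the HBO1 acetyltransferase complex, had 86.6, 15.6 and 24.2 RPKM in Tet2 KO and 63.3, 27.7 and 36.1 RPKM in wild type. Ttc33 had 9.2, 4.58 and 11.3 RPKM in Tet2 KO and 23.5, 6.74 and 7.19 RPKM in wild type. The long noncoding RNA Platr13 had 41.9, 16 and 25 RPKM in Tet2 KO and 50.7, 9.73 and 719.6 RPKM in wild type, and its wild type 6 h value stood far above all others. Rpp40, Exo1 and Ccnl1 had the 3 h minimum in 1 genotype only. Rpp40, of ribonuclease P, had 35.4, 4.52 and 26.8 RPKM in Tet2 KO and 48.2, 26.3 and 22.8 RPKM in wild type, with the one low value in the Tet2 KO 3 h library. Exo1, an exonuclease of mismatch repair, had 46.1, 14.9 and 13.9 RPKM in Tet2 KO and 22.2, 9.05 and 15 RPKM in wild type, and Ccnl1, the splicing-linked cyclin L1, had 19.8, 8.1 and 11.2 RPKM in Tet2 KO and 28.6, 6.69 and 5.63 RPKM in wild type.

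Zfp zinc finger genes, many of them KRAB repressors, gave the largest number of listed loci to this class, 22 of 141 members (15.6%, against 2.98% of all loci). Their median relative change was -0.66 in Tet2 KO and -0.58 in wild type to 3 h, and -0.26 and -0.05 from 3 to 6 h. Signalling feedback genes, which include inhibitors of the FGF and cytokine pathways, had 4 of 15 members in the class. Immediate early and Myc genes had 2 of 7. The lists held 33 signalling feedback genes and 24 immediate early and Myc genes. Listed genes under the 3 h limit, or not measured under a single symbol, are not among the members.

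The 63 continued RNAs were lower at each step in both genotypes, which follows from the definition of the class. Their median relative change was -1.03 and then -0.87 in Tet2 KO, and -1.33 and then -0.84 in wild type. Of them 37 came from protein-coding genes (58.7%) and 11 from small nuclear RNA (snRNA) genes (17.5%, against 1.26% of all loci). Copies of snRNA genes carry near-identical sequences, so reads may be split between them, and the 11 loci may not be 11 separate RNAs. Over the 138 snRNA loci the median late change was -0.39 relative in Tet2 KO and -0.44 in wild type.

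Akirin2, at chr4:34550615-34566965, encodes a factor for nuclear import of proteasomes, and had 19.9, 11.2 and 2.72 RPKM in Tet2 KO and 22.4, 12.1 and 2.28 RPKM in wild type. The 2 genotypes ran side by side, with a late difference of -1.85 (SE 0.24, limma adjusted p = 0.299). Dbr1, the debranching enzyme of intron lariats, had 16.3, 9.52 and 2.24 RPKM in Tet2 KO and 19.4, 10.0 and 2.59 RPKM in wild type and a late difference of -1.66 (SE 0.23, limma adjusted p = 0.299). Klf5, a pluripotency transcription factor, had 35.3, 21.3 and 7.78 RPKM in Tet2 KO and 26, 16.5 and 4.96 RPKM in wild type. Exosc1, a subunit of the exosome, had 17.6, 10.4 and 2.92 RPKM in Tet2 KO and 17.6, 8.48 and 2.93 RPKM in wild type, and Rfc3, of the clamp loader of DNA replication, had 33.4, 16.5 and 4.37 RPKM in Tet2 KO and 33.1, 14.4 and 5.58 RPKM in wild type. In these 5 genes the ranges of the 3 time points, each over both genotypes, did not overlap. Their choice by large falls or small p-values favours this, and the share of all loci with such ranges was not counted.

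The class also held several regulators and a transporter. Mdm2, the ubiquitin ligase of p53 at chr10:117688875-117710758, had 76.6, 31 and 13.1 RPKM in Tet2 KO and 77.3, 29.6 and 14.3 RPKM in wild type, which are similar steps on the log scale in the 2 intervals. Atf4, the transcription factor of the integrated stress response, had 92.2, 31 and 16.5 RPKM in Tet2 KO and 97.2, 32.6 and 12.7 RPKM in wild type, and Xbp1, of the unfolded protein response, had 12.1, 3.82 and 1.61 RPKM in Tet2 KO and 15.9, 4.07 and 0.968 RPKM in wild type. Ddit4, an inhibitor of mTORC1, had 24.1, 8.93 and 1.52 RPKM in Tet2 KO and 27.4, 9.39 and 3.66 RPKM in wild type. Mycn had 27.6, 12.4 and 4.78 RPKM in Tet2 KO and 28.4, 7.85 and 3.17 RPKM in wild type, Nfkbia, the inhibitor of NF-kappaB, had 12.3, 3.65 and 0.858 RPKM in Tet2 KO and 18.9, 2.44 and 0.331 RPKM in wild type, and Cdkn1a, the cyclin-dependent kinase inhibitor p21, had 26.8, 12.1 and 6.66 RPKM in Tet2 KO and 29.2, 10.2 and 4.41 RPKM in wild type. Slc2a1, the main glucose transporter, had the highest 3 h level of them per kilobase, with 83.5, 38.7 and 18.7 RPKM in Tet2 KO and 97.5, 48.9 and 22.1 RPKM in wild type. Their late differences ran from -1.57 for Ddit4 to -0.91 for Cdkn1a, and all had limma adjusted p-values of 0.299 or more.

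The class further held Topors, a ubiquitin and SUMO ligase, with 38.7, 8.86 and 3.05 RPKM in Tet2 KO and 22.6, 6.86 and 1.44 RPKM in wild type. Mat2b, a subunit of the enzyme that makes S-adenosylmethionine, had 31.4, 18.7 and 6.01 RPKM in Tet2 KO and 54.7, 14.6 and 5.23 RPKM in wild type, and Tcf15, a basic helix-loop-helix factor, had 12.6, 5.72 and 2.85 RPKM in Tet2 KO and 47.3, 7.96 and 3.22 RPKM in wild type. Dyrk3, a kinase, had 12.6, 7.94 and 1.6 RPKM in Tet2 KO and 13.3, 3.19 and 0.922 RPKM in wild type, and Tor1a, an ATPase of the endoplasmic reticulum, had 14.8, 7.08 and 2.64 RPKM in Tet2 KO and 18.6, 6.62 and 1.39 RPKM in wild type. Tcf15 was far lower in Tet2 KO than in wild type at 0 h and at like levels in both at 6 h.

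Replication-dependent histone genes had the lowest early median of all lists and a late median below 0 as well. Of 66 listed genes, 22 had at least 1 RPKM in both 3 h libraries under a single symbol. Any that had fallen below that limit by 3 h are not among them. Of the 22, 13 fell in the early interval by the limma test. A late change below the median in both genotypes was seen for 17 of the 22 (77.3%, against 27.6% of all loci). Their median relative change was -2.98 to 3 h and -0.51 from 3 to 6 h in Tet2 KO, and -4.07 and -0.53 in wild type. Hist1h1a, a linker histone, had 352, 21.9 and 3.29 RPKM in Tet2 KO and 496, 21.2 and 9.29 RPKM in wild type, an early difference of -4.22 (SE 0.33, limma adjusted p = 0.0178) and a late one of -1.76 (SE 0.33, limma adjusted p = 0.299). Hist1h3b had 31.6, 3.06 and 0.984 RPKM in Tet2 KO and 114, 7.33 and 1.03 RPKM in wild type. These mRNAs normally carry no poly(A) tail, and what a library of poly(A) RNA caught of them was not tested.

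Among the 39 loci called lower in the early interval, 8 had ended by 3 h, 3 continued, and 28 were in neither class. A late change below the median in both genotypes was seen for 27 of the 39. Over all loci, 2.98% had ended, 0.577% continued and 27.6% were below the median in both. An early fall is part of the definition of the ended and continued classes, and 13 of the 39 were the histone genes described above. Fgf4, a growth factor of embryonic stem cells, had 34.2, 1.76 and 1.25 RPKM in Tet2 KO and 34, 1.91 and 3.14 RPKM in wild type, and Spry4, an inhibitor of FGF signalling, had 32.4, 3.22 and 2.27 RPKM in Tet2 KO and 28.5, 3.11 and 2.43 RPKM in wild type. Dusp6, a phosphatase of ERK, had 39.3, 1.81 and 0.878 RPKM in Tet2 KO and 24.7, 2.37 and 0.994 RPKM in wild type, Socs3, an inhibitor of cytokine signalling, had 17.4, 1.69 and 0.502 RPKM in Tet2 KO and 21.4, 1.07 and 0.452 RPKM in wild type, and Nodal had 12.3, 1.11 and 0.546 RPKM in Tet2 KO and 22.4, 2.33 and 0.841 RPKM in wild type. These 5 genes were at 1.07 to 3.22 RPKM at 3 h, where the added 1 on the log scale compresses any further change. Mepce, of the 7SK complex, was a case of a higher 6 h level, with 10.1, 1.34 and 3.03 RPKM in Tet2 KO and 9.44, 1.76 and 2.36 RPKM in wild type. Of the 4 loci called higher by 3 h, Mapre1, a microtubule end-binding protein, had similar levels at 6 h and 3 h, with 17.1, 79.9 and 90.3 RPKM in Tet2 KO and 13, 66.4 and 58.9 RPKM in wild type and a late difference of 0.00 (SE 0.20, limma adjusted p = 0.997). The other 3 were 2 gene models of near-identical values and a locus of several symbols. The 39 lower calls depended on single libraries, each left out in a fit with 1 residual degree of freedom. Of the 39, 0 were called without the wild type 3 h library, where the 1 lower call was another locus, and 0 without the Tet2 KO 3 h library. Without either 6 h library 7 of the 39 were called, and without the Tet2 KO or the wild type 0 h library 26 and 19 of them, among 58 and 27 lower calls.

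The lowest p-values of the late change went to Golt1b, Lsm8, Uchl1, Akirin2, Rfxap, Nptn, Dbr1, Klf5, Naa20 and Sgk2, all with an adjusted p of 0.299. Lsm8, which with its partners binds U6 snRNA, had 7.67 RPKM at 6 h and 29.1 RPKM at 3 h in Tet2 KO, and 6.86 RPKM at 6 h and 26 RPKM at 3 h in wild type, and at 0 h 46.5 RPKM in Tet2 KO and 36 RPKM in wild type. Its 6 h over 3 h ratio was 0.263 in Tet2 KO and 0.263 in wild type. Naa20, the catalytic subunit of an N-terminal acetyltransferase, had 10.9 RPKM at 6 h and 28.1 RPKM at 3 h in Tet2 KO, and 6.09 RPKM at 6 h and 18.9 RPKM at 3 h in wild type. Rfxap, a subunit of the factor that activates MHC class II promoters, had 0.912 RPKM at 6 h and 6.08 RPKM at 3 h in Tet2 KO, and 0.116 RPKM at 6 h and 3.51 RPKM at 3 h in wild type, and the kinase gene Sgk2 had 0.178 RPKM at 6 h and 3.2 RPKM at 3 h in Tet2 KO, and 0.213 RPKM at 6 h and 3.99 RPKM at 3 h in wild type. In each, both 6 h libraries were below both 3 h libraries. Choice by smallest p with the same direction in both genotypes favours this, and its share over all loci was not counted.

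On the higher side the lowest p-values went to Edem1, Camta1, Camk1d, Snord34, Stra8, P3h4, Epb41l1, Kat6b, Safb2 and Fam149b, with adjusted p-values from 0.299 to 0.341. Edem1, a lectin that sends misfolded glycoproteins to degradation, had 16.2 RPKM at 6 h and 4.29 RPKM at 3 h in Tet2 KO, and 13 RPKM at 6 h and 5.38 RPKM at 3 h in wild type, against 4.86 and 5.5 RPKM at 0 h in Tet2 KO and wild type, and a late difference of 1.42 (SE 0.26, limma adjusted p = 0.299). Camta1, a calmodulin-binding transcription activator, had 22.4 RPKM at 6 h and 6.61 RPKM at 3 h in Tet2 KO, and 38.2 RPKM at 6 h and 17.6 RPKM at 3 h in wild type. Kat6b, a histone acetyltransferase, had 22.9 RPKM at 6 h and 9.68 RPKM at 3 h in Tet2 KO, and 19.1 RPKM at 6 h and 12.5 RPKM at 3 h in wild type. The small nucleolar RNA Snord34 had 2151 RPKM at 6 h and 1377 RPKM at 3 h in Tet2 KO, and 2127 RPKM at 6 h and 1033 RPKM at 3 h in wild type. Stra8, a gate of meiotic entry, had 7.65 RPKM at 6 h and 1.31 RPKM at 3 h in Tet2 KO, and 6.38 RPKM at 6 h and 2.86 RPKM at 3 h in wild type. In these genes both 6 h libraries were above the 3 h library of their own genotype, as their choice by the same direction in both required. For Camta1 the Tet2 KO level was below that of wild type at each time.

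The relative late medians of the gene lists ran from -0.65 to 0.49, both in wild type. Immediate early and Myc genes had a median relative late change of -0.46 in Tet2 KO and -0.65 in wild type over 7 measured members, p53 targets -0.35 and -0.43 over 23, and developmental transcription factors -0.37 and -0.23 over 28. Of the p53 targets, 15 of 23 (65.2%) were below the median of all loci in both genotypes, and 12 were lower at an unadjusted p under 0.05, beside 12.7% of all loci. Trp53inp1, a p53 target that promotes cell death, was near its 0 h level at 3 h, with 51.4, 41.8 and 20.3 RPKM in Tet2 KO and 46.3, 42 and 16.3 RPKM in wild type and a late difference of -1.16 (SE 0.20, limma adjusted p = 0.299). Among the 59 mRNA decay factors, 18 (30.5%) were below the median in both genotypes, near the 27.6% of all loci. Cnot2, of the CCR4-NOT deadenylase, had 24.6, 16.6 and 8.3 RPKM in Tet2 KO and 33.5, 18.3 and 9.33 RPKM in wild type, and Pum2, an RNA-binding repressor, had 37.1, 20.9 and 12.2 RPKM in Tet2 KO and 28.2, 16.7 and 7.73 RPKM in wild type.

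Mitosis and kinetochore genes had a late change below the median in both genotypes for 24 of 47 members (51.1%, against 27.6% of all loci). Their late medians were -0.14 in Tet2 KO and -0.16 in wild type, after early medians of -0.12 and 0.01. Kif20b, a kinesin of cytokinesis, had 30.0, 19.5 and 7.49 RPKM in Tet2 KO and 20.6, 15.6 and 3.69 RPKM in wild type, and a late difference of -1.55 (SE 0.24, limma adjusted p = 0.299). The mitotic cyclin Ccna2 had 61.4, 60.8 and 32.1 RPKM in Tet2 KO and 41.8, 47.2 and 24.6 RPKM in wild type, with the lower levels at 6 h in both genotypes, and Ccnb1 had 64.9, 51.1 and 35.4 RPKM in Tet2 KO and 62.2, 46.5 and 29.5 RPKM in wild type. Pluripotency genes were mixed, with 12 of 26 (46.2%) below the median in both genotypes and 4 (15.4%) above. Over all loci, 27.6% were below and 27.6% above in both. Pou5f1, the core pluripotency factor Oct4, had 528, 765 and 799 RPKM in Tet2 KO and 415, 737 and 559.6 RPKM in wild type, and Zfp42, a marker of the naive state, had 30.6, 10.8 and 6.79 RPKM in Tet2 KO and 120.2, 52.5 and 24.7 RPKM in wild type.

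At the upper end of the late medians, 36 of 59 cytoplasmic ribosomal protein genes (61.0%, against 27.6% of all loci) were above the median in both genotypes and 5 below. Their median relative late change was 0.07 in Tet2 KO and 0.11 in wild type, and the mean of both turned to -0.0036 after quantile normalization. Cytoskeleton genes had 13 of 32 members above in both and 3 below, with medians of 0.11 and 0.01. Actb had 785, 1254 and 1193 RPKM in Tet2 KO and 1076, 1144 and 994 RPKM in wild type, Tmsb10 had 316, 425 and 395 RPKM in Tet2 KO and 403, 539.8 and 508 RPKM in wild type, and Gapdh, of glycolysis, had 951, 1076 and 1028 RPKM in Tet2 KO and 980.3, 1134 and 908 RPKM in wild type, all with late differences between -0.19 and -0.10 that turned positive with the median shift set to 0. Small nucleolar and Cajal body RNAs had 11 of 21 members above in both, with medians of 0.12 in Tet2 KO and 0.49 in wild type. Most of these RNAs carry no long poly(A) tail, and overlap with their host genes can shift reads between them.

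**Figure D4:**
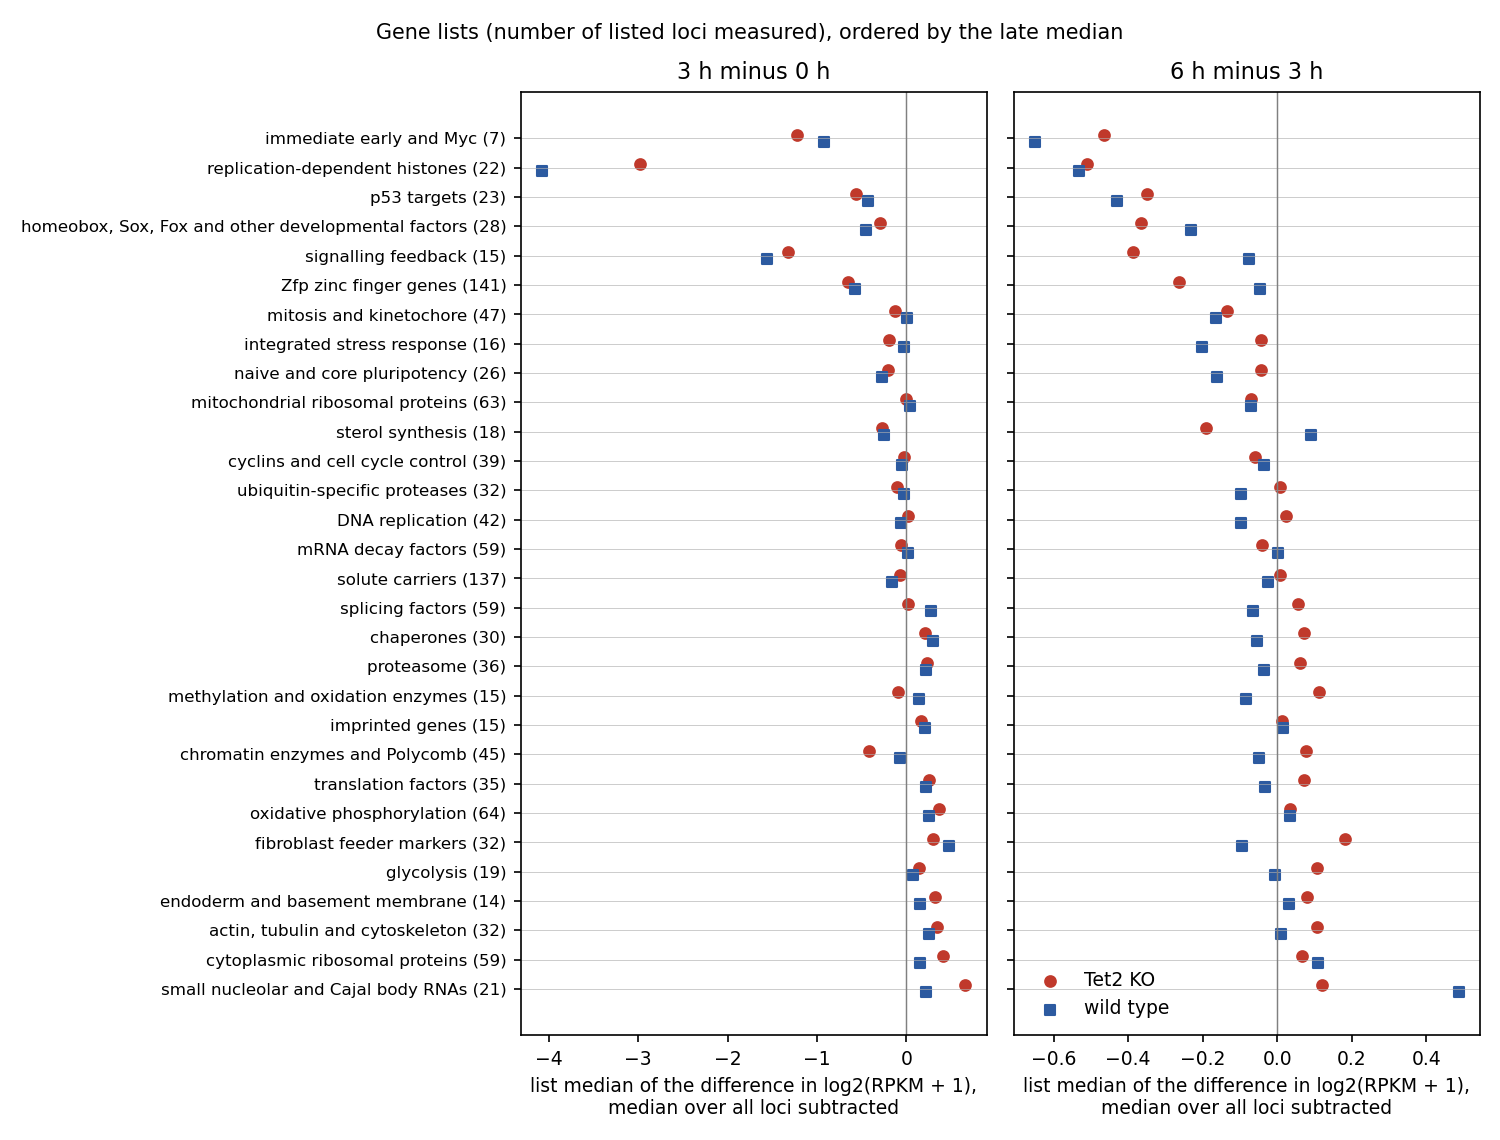
Median relative difference in log2(RPKM + 1) of each gene list, for 3 h minus 0 h (left) and 6 h minus 3 h (right), with Tet2 KO as red circles, wild type as blue squares and the number of measured members in brackets. Histone genes lie farthest left in the early interval at -2.98 in Tet2 KO and -4.07 in wild type, and in the late interval the lists span -0.65 to 0.49, on a narrower axis.

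The site tables of RNA bisulfite sequencing, which list positions with an m5C level of at least 0.1, gave a property outside the time course to set beside it. Of 9449 single-symbol loci that could be placed on GRCm38.p6, 3479 (36.8%) held at least 1 listed site within the gene body. Their median relative late change was 0.00 in Tet2 KO and -0.04 in wild type, against -0.01 and 0.01 for the 5970 loci with no listed site. Loci with a site were in the delayed class in 23 cases (0.661%), against 72 (1.21%) of those without, and in the ended class in 113 cases (3.25%), against 147 (2.46%). Their median 3 h level was higher, 9.98 RPKM in Tet2 KO and 9.92 RPKM in wild type, against 7.52 and 7.42 RPKM, and its part in these shares was not tested.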

How the data were processed

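Values came from 6 RNA-seq libraries of mouse embryonic stem cells, 1 per genotype and time, grouped by the sample titles. Immunoprecipitation and input libraries (8 samples) were left out. The authors deposited RPKM per locus, per the file headers (the wild type 0 h header lacks the first letter of the unit). They also deposited, per the file headers, m5C levels per site as a fraction, of which only the listed positions were used. The submitters' processing notes name Trimmomatic, Bowtie2, Cufflinks, mm10 and GRCm38. Tool versions and the handling of strand, duplicates and multiply mapped reads, any of which could shift an RPKM, are not given in the sources.

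Numbers of reads are not given. From ratios of values under 0.3 RPKM, read as ratios of up to 8 whole reads (tolerance 0.002, natural log), 15.5% to 44.9% of ratios matched 1 relative depth per library. With the Tet2 KO 3 h library at 1.00, the best solutions were 1.31 and 1.77 for Tet2 KO at 0 and 6 h, and 2.27, 1.78 and 1.73 for wild type at 0, 3 and 6 h, but solutions with another number of reads per step fitted almost as well, so depth is not settled.

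The log2(RPKM + 1) values were fitted with limma 3.58.1 in R 4.3.3 over loci averaging 1 RPKM or more, with time as a factor and genotype as a covariate (2 residual degrees of freedom), empirical Bayes moderation with a mean trend, two-sided tests and Benjamini-Hochberg adjustment at 0.05; the script was tested on simulated data. On this scale, changes of low loci are understated. Loci of several symbols (691 of the 10911) were counted but entered none of the 31 gene lists, of which 1, of noncoding host genes, had no measured member as a single symbol. Named were Tet2, the 10 smallest p-values per direction, up to 10 genes per class with a mean 3 h RPKM of at least 5, and members of each list by p or level. Pseudogenes and gene models without a standard name were not named. Members and lists were chosen with earlier results of these data known. Gene positions came from RefSeq, GRCm38.p6. Alternatives varied scaling, pseudocount, filters, model terms and single libraries.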

Additional observations from a re-analysis of the deposited data

Results flagged for a closer look

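The following late differences in log2(RPKM + 1) had opposite signs in the 2 genotypes, which have 1 library per time each, so the difference between the genotypes was not tested. Rpp40 had 2.33 in Tet2 KO and -0.20 in wild type. Ccnl1 had 0.43 in Tet2 KO and -0.21 in wild type, and Exo1 had -0.10 in Tet2 KO and 0.67 in wild type. Pou5f1 had 0.062 in Tet2 KO and -0.40 in wild type, and Fgf4 had -0.29 in Tet2 KO and 0.51 in wild type. Mapre1 had 0.17 in Tet2 KO and -0.17 in wild type, and Nit1 had 0.0024 in Tet2 KO and -0.18 in wild type. With no median over loci subtracted, the median of the small nucleolar and Cajal body RNAs was -0.073 in Tet2 KO and 0.11 in wild type. The relative medians of this list, 0.12 and 0.49, had the same sign. Relative medians of other lists did differ in sign between the genotypes. Of 30 lists, the sign differed from that of the mean over genotypes in 4 for Tet2 KO and in 9 for wild type.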

How the results depend on the processing

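The count of 0 late calls was the same in every alternative run, and no named gene passed under any of them. The late minus early change gave 0 to 1 lower calls and 0 to 2 higher calls when 1 library was left out (1 lower without wild type 0 h, 1 lower and 2 higher without Tet2 KO 0 h, 1 higher without wild type 3 h), and 0 in the other alternatives. The early change, 39 lower and 4 higher, had 6 and 1 calls after quantile normalization, 7 and 1 with the median shift set to 0, 120 lower when scaled to the genes of ribosomal proteins and oxidative phosphorylation, 8 and 0 with no filter, and 0 to 58 lower and 0 to 10 higher when 1 library was left out. The median late change was 0.035 in Tet2 KO and -0.031 in wild type after quantile normalization, and -0.11 in wild type under that second scaling. The causes of these shifts were not tested.

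The classes of delayed, ended and continued loci held 26, 89 and 2 at 2-fold, 374, 174 and 166 with no median subtracted, 183, 372 and 124 with a pseudocount of 0.1, 63, 110 and 51 with RPKM of at least 5 in both 3 h libraries, 1159, 1568 and 195 in Tet2 KO alone, and 525, 1214 and 261 in wild type alone. With a pseudocount of 0.1, 102 of the 107 delayed, 274 of the 325 ended and 60 of the 63 continued loci were still in their class. Of 30 list medians, the mean over genotypes changed sign in 3 after quantile normalization and in 1 under the second scaling. The median in Tet2 KO alone had the other sign in 4 lists, and that in wild type alone in 9. The correlation of the late change between genotypes was 0.09 to 0.13 under its alternatives. Alternatives for the early change, the median and the correlation were added after seeing the data. Genotype was the only block in the fit. Without that term the late change again gave 0 calls, and the early change 27 lower and 5 higher. By replicate number, no paired analysis was possible because there is 1 RNA-seq library per genotype and time. With depth unsettled, no interval could be given for a single RPKM, and late changes of RNAs near 1 RPKM are the least certain.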
